A study of Macaca fascicularis with 6 samples.

Results

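The transcription factors *SOX9*, *SOX5* and *SOX6* were followed over 5 conditions of cynomolgus monkey cells that span the making, transplantation and native counterpart of cartilage organoids. The genes were chosen by name as the chondrogenic SOX factors. Of the 5 genes named, *SOX5*, *SOX6* and *SOX9* could be followed among the 14020 genes listed, and *SOX4* and *SOX11* were not analysed here. Single-cell transcriptomes had been read by TAS-Seq, in which cDNA captured on beads is tailed and amplified before sequencing, and the values are read counts per gene and cell. The undifferentiated cells (cyiPSC) were 1 line of cynomolgus monkey iPS cells with EGFP placed at the AAVS1 locus under the constitutive CAG promoter. Pre-transplant cyiPS-Cart were cartilage organoids grown from that line, and post-transplant cyiPS-Cart were the same kind of organoid recovered 4 months after they had been placed in chondral defects of the knee of wild-type monkeys 3 to 4 years old, without immunosuppression. The label of the post-transplant sample gives the recipient's wild-type genotype, whereas the study describes its cells as coming from the EGFP line. Wild-type monkeys of that age gave the native articular cartilage (cyAC) and the fibrous repair tissue of defects that had been left empty (cyFT). The label of the library that cyAC and cyFT shared also gives 4 months. By the study's methods 3 monkeys of each group were killed at each time and 2 transplant sites of each monkey were combined for sequencing, but which monkeys went into each library is not given in the sources used here.

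*SOX9* encodes the factor that cells need to enter and keep the cartilage lineage, and it binds enhancers of cartilage matrix genes such as *COL2A1* and *ACAN*. *SOX5* and *SOX6* encode closely related proteins that lack an activation domain of their own, bind DNA beside *SOX9* and raise its output on those genes, and the 3 together are known as the SOX trio. *SOX4* and *SOX11* belong to another SOX group that acts in progenitor cells.

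Each condition was 1 sample, and the samples came from 3 libraries. cyiPSC and pre-transplant cells shared a library, as did cyAC and cyFT, and post-transplant cells had their own, so condition and library cannot be told apart between those libraries. Conditions could therefore not be tested against each other, and the 95% intervals in parentheses (exact Poisson for reads, exact conditional for ratios, exact Clopper-Pearson for shares of cells) cover counting error only. One set held 2500 cyiPSCs and 3527 pre-transplant cells, called the large set here. The other held 320 cells of each sample other than cyiPSC, and 300 of its 320 pre-transplant cells, the small set, were also in the large set. Median reads per cell ran from 27500 in cyFT to 143075 in cyiPSC. Levels were summed reads per 1000000 (CPM), and shares of cells with a read were taken after thinning each cell to 30967 reads in the first set or 12191 in the second. Marker genes were read as a check of the labels. The 10 chondrocyte markers summed to 119 CPM in cyiPSC and to between 38702 and 85339 CPM in the other samples, and 7 pluripotency markers to 801 CPM in cyiPSC and at most 17.1 CPM elsewhere. Fibroblast markers summed to 421 CPM in cyiPSC and from 10414 CPM in cyAC to 75444 CPM in post-transplant cyiPS-Cart, with 50952 CPM in cyFT. Among 6 immune markers the sum was 491 CPM in cyFT and at most 20.7 CPM in the other samples. Endothelial markers stayed at or under 11.5 CPM, neural and neural crest markers lay between 38.0 and 499 CPM, and smooth muscle markers between 53.0 and 1889 CPM. No cell name was shared between libraries of the 320-cell samples.

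*SOX9* was low in cyiPSC and abundant in every cartilage or defect sample. Its level was 13.8 CPM (13.5 to 14.2) in cyiPSC, 527 CPM (524 to 530) in the large pre-transplant set and 483 CPM (474 to 492) in the small one. It was 785 CPM (775 to 795) in post-transplant cyiPS-Cart, 395 CPM (383 to 406) in cyAC and 555 CPM (541 to 569) in cyFT. Post-transplant cyiPS-Cart thus had the highest level and cyAC the lowest outside cyiPSC. The order from low to high was cyiPSC, cyAC, pre-transplant, cyFT and post-transplant. The small pre-transplant set came from the same library as the large one, and 300 of its 320 cells were among the 3527 of the large set. Their *SOX9* intervals did not overlap, which gives a scale for how much the counting intervals leave out between sets of cells from 1 library. The intervals of neighbours in the order did not overlap either, but without replicates the spread between samples is unknown. A summed level cannot tell fewer cells with the transcript from less of it per cell.

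*SOX5* followed another order. It was at 5.93 CPM (5.70 to 6.17) in cyiPSC, 55.9 CPM (55.0 to 56.9) and 51.5 CPM (48.5 to 54.7) in the large and small pre-transplant sets, and 77.8 CPM (74.7 to 81.0) in post-transplant cyiPS-Cart. In the joint tissues it was at 158 CPM (151 to 166) in cyAC and 147 CPM (140 to 154) in cyFT. The organoids therefore sat between cyiPSC and the joint tissues both before and after transplantation, and the intervals of cyAC and cyFT overlapped.

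*SOX6* had few reads in all samples. Its level was 0.128 CPM (0.0956 to 0.167) in cyiPSC, from 53 reads over 2500 cells. It was 8.04 CPM (7.68 to 8.40) in the large and 5.02 CPM (4.12 to 6.07) in the small pre-transplant set, the latter from 107 reads. Post-transplant cyiPS-Cart had 5.69 CPM (4.87 to 6.62), cyAC 19.0 CPM (16.6 to 21.7) and cyFT 18.1 CPM (15.7 to 20.8). The joint tissues again lay above the organoids, the small pre-transplant and post-transplant intervals overlapped, and so did those of cyAC and cyFT.

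**Figure D1:**
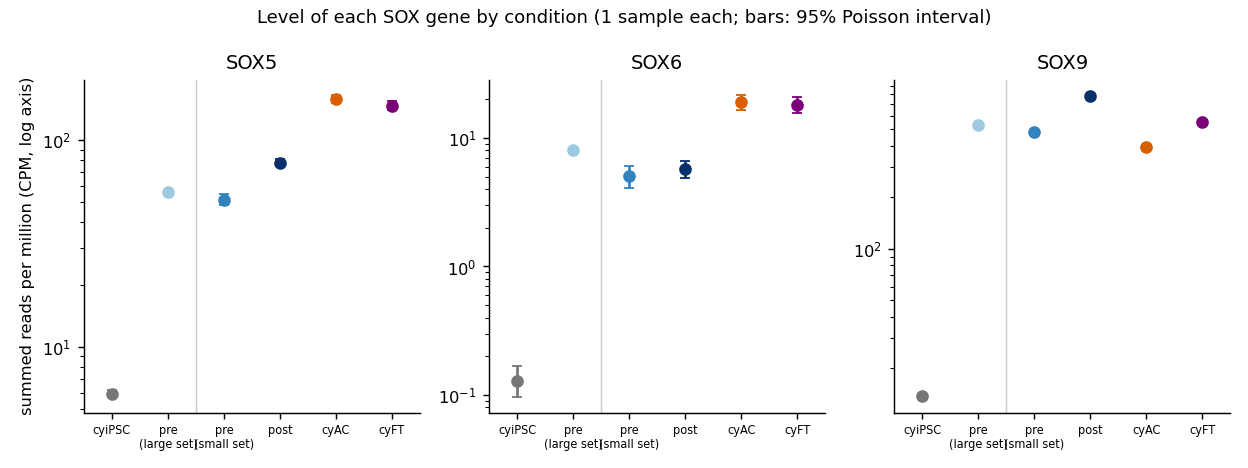
Summed level of *SOX5*, *SOX6* and *SOX9* (CPM, log axis with its own range in each panel) in each condition, 1 sample each, with 95% Poisson intervals that are often smaller than the point. The grey line parts the 2 cell sets. *SOX5* and *SOX6* are highest in cyAC (158 and 19.0 CPM) and cyFT (147 and 18.1 CPM), *SOX9* in post-transplant cyiPS-Cart (785 CPM).

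The comparison of pre-transplant cyiPS-Cart with cyiPSC asks what differentiation into cartilage brought. *SOX9* was 38.1-fold higher (37.1 to 39.1) in the organoid, *SOX5* 9.43-fold higher (9.03 to 9.85) and *SOX6* 63.0-fold higher (48.0 to 84.4). On the log2(CPM + 1) scale, where the added 1 holds down the ratios of low genes, the differences were 5.15 for *SOX9*, 3.04 for *SOX5* and 3.00 for *SOX6*. *SOX5* and *SOX9* reached 10 CPM in a sample and reads in 5% of its cells, the filter used for counts over genes, and *SOX6* did not. *SOX5* passed it through the organoid alone. All 3 differences were past 2-fold upward, but that of *SOX6* was 0.83 with 10 CPM added in place of 1, and 5.16 with 0.1 CPM added. Of the 8574 genes past the filter, 16.5% were at least 2-fold higher and 37.4% at least 2-fold lower in the organoid. The median gene was at -0.61 on the log2 scale, so relative to it the trio's differences were larger by that shift. With TMM scaling, which estimates a factor per sample from the bulk of genes, the *SOX9* difference was 5.80.

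The *SOX9* level in cyiPSC was measured in a library shared with the organoid cells. Reads of *SOX9* in cyiPSC came to 2.63% of the organoid level, those of *SOX5* to 10.6% and those of *SOX6* to 1.59%. For *COL2A1* the figure was 0.0622% and for *ACAN* 0.155%, but the authors had set low counts of such abundant genes to 0, so that the lowest *COL2A1* count left in the library was 145 reads. The lowest count of each SOX gene was 1 read in every sample, so no such gap was seen for them. How much of the cyiPSC signal came from free RNA of the organoid cells was not tested. *SOX2*, the SOX factor of pluripotent cells, ran the other way, from 279 CPM in cyiPSC to 5.04 CPM in the large pre-transplant set, and no read of it was counted in post-transplant cyiPS-Cart, cyAC or cyFT.

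After transplantation none of the 3 genes was past 2-fold against the pre-transplant organoid. *SOX9* was 1.63-fold higher (1.59 to 1.66), *SOX5* 1.51-fold higher (1.41 to 1.62) and *SOX6* 1.13-fold higher with an interval that spans no difference (0.885 to 1.46). Of 7577 genes, 8.86% were at least 2-fold higher and 18.5% at least 2-fold lower in this comparison, and the median gene was at -0.25. When the mean of per-cell CPM was taken in place of the sum, so that deep cells weigh no more than others, the *SOX9* log2 difference was 0.45 in place of 0.70. *COL2A1*, a main target of the trio, was 1.64-fold higher and *ACAN* 1.60-fold higher, close to the ratio of *SOX9*. The fibrous collagen gene *COL1A1* was 1.45-fold higher as well, and the other matrix targets, given below, ran both ways.

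Against native cartilage the trio split. In post-transplant cyiPS-Cart *SOX9* was 1.99-fold higher than in cyAC (1.93 to 2.05), while cyAC had 2.04-fold more *SOX5* (1.91 to 2.16) and 3.34-fold more *SOX6* (2.73 to 4.10). On the log2(CPM + 1) scale *SOX5* was lower by 1.02 and *SOX6* by 1.58, and *SOX9* was higher by 0.99. *SOX5* and *SOX9* lie at the 2-fold line, and which of them passes it depends on the scaling. With TMM *SOX5* was at -0.90 and *SOX9* at 1.11, and with 4 abundant collagens left out of the total they were at -0.92 and 1.09. *SOX6* entered the filter through cyAC alone, where it is high. Of 7594 genes, 10.6% were at least 2-fold higher and 15.7% at least 2-fold lower than in cyAC. *COL2A1* and *ACAN* stood at 1.04-fold and 1.07-fold of cyAC.

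Before transplantation *SOX5* and *SOX6* were also lower in the organoid than in cyAC, and *SOX9* was near the typical gene. *SOX9* was at 1.22-fold of cyAC (1.18 to 1.27), a log2 difference of 0.29 where the median gene was at 0.19. In turn cyAC held 3.07-fold more *SOX5* (2.85 to 3.32) and 3.79-fold more *SOX6* (2.99 to 4.81). *SOX6*, at 5.02 CPM in the organoid, again entered the filter through cyAC alone, where it is high. With the large pre-transplant set in place of the small one the *SOX6* difference was -1.15 in place of -1.73 on the log2 scale. Of 7713 genes, 15.4% were at least 2-fold higher and 11.8% at least 2-fold lower in the organoid. Post-transplant and pre-transplant values were set against the same cyAC cells, so these comparisons share their control sample.

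No member was past 2-fold between the fibrous tissue and articular cartilage. cyFT over cyAC was 1.41-fold for *SOX9* (1.35 to 1.46), 0.928-fold for *SOX5* (0.868 to 0.992) and 0.953-fold for *SOX6* (0.784 to 1.16). The interval of *SOX9* lay above equality and that of *SOX6* spanned it. Of 7804 genes, 11.3% were at least 2-fold higher and 3.92% at least 2-fold lower in cyFT. Over the same pair *COL1A1*, the collagen of fibrous tissue, was 15.2-fold higher in cyFT, and *COL2A1* was 2.28-fold higher in cyAC. In cyFT 17 of 320 cells held reads of at least 2 of the 6 immune markers, and without those cells the *SOX9* level was 600 CPM and the log2 difference from cyAC 0.60 in place of 0.49.

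The share of cells with a read gave a different order for *SOX9* than the summed level. After thinning to an equal number of reads, 82.2% (77.5 to 86.2) of post-transplant cells and 78.7% (73.8 to 83.0) of the small pre-transplant set held a *SOX9* read, against 62.0% (56.3 to 67.5) in cyAC and 67.7% (62.0 to 73.1) in cyFT. Not thinned, the shares were 90.6%, 88.1%, 69.4% and 72.5%. Thinning equalises amplified reads and not captured molecules. The median number of genes per cell before thinning was 2594.5 in post-transplant cyiPS-Cart, 3765 in the small pre-transplant set, 2284 in cyAC and 2300.0 in cyFT, and the part of this difference in the shares was not tested. More cyAC and cyFT cells than organoid cells were therefore without a *SOX9* read, although cyFT had the higher summed level when set beside the pre-transplant organoid. In the first set, at its greater depth, the shares were 85.0% (83.7 to 86.2) in pre-transplant cells and 22.4% (20.7 to 24.1) in cyiPSC. The immune-marker cells of cyFT served as a cell type that should lack the gene. None of the 16 of them that could be thinned had a *SOX9* read, so that a share of up to 18.8% is allowed by the limit of 3 counts and 20.6% by Clopper-Pearson, at a median depth of 46169 reads per cell against 26473 in the other cyFT cells. Not thinned, 2 of the 17 held *SOX9* reads. The *SOX9* shares of cyAC and cyFT, from the same library, were above that limit, and the background of the organoid libraries was not measured. The rule of at least 2 markers also took 195 of the deeply read cyiPSCs, where these markers summed to 10.5 CPM, and was not used there.

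For *SOX5* the thinned shares were 26.3% (21.6 to 31.5) in the small pre-transplant set, 30.9% (25.9 to 36.3) in post-transplant cyiPS-Cart, 50.3% (44.6 to 56.0) in cyAC and 41.7% (35.9 to 47.6) in cyFT. Not thinned they were 44.4%, 48.4%, 59.7% and 49.1%. The order of cyAC above the organoids was the same in shares and in CPM. Of the 16 immune-marker cells 3 held a *SOX5* read, or 18.8% with a wide interval of 4.05 to 45.6, so at this number of cells the background for *SOX5* was not well bounded. In the first set 44.9% (43.2 to 46.7) of pre-transplant cells and 11.8% (10.6 to 13.2) of cyiPSCs held a read.

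*SOX6* was seen in few cells. The thinned shares were 3.76% (1.959 to 6.48) in the small pre-transplant set, 4.06% (2.18 to 6.85) in post-transplant cyiPS-Cart, 7.14% (4.53 to 10.6) in cyAC and 7.99% (5.13 to 11.7) in cyFT. These intervals overlap, the shares rest on 12, 13, 22 and 23 cells, and the difference between them was not tested. The shares of cyAC and cyFT were below the 18.8% that 0 of 16 immune-marker cells of their library allows. In the first set 9.11% (8.13 to 10.2) of pre-transplant cells against 0.164% (0.0447 to 0.419) of cyiPSCs held a *SOX6* read, and those intervals were far apart.

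Within a sample *SOX9* was spread unevenly over cells. The median cell had 508 CPM in post-transplant cyiPS-Cart, 312 CPM in the large pre-transplant set, 249 CPM in cyFT, 143 CPM in cyAC and 0 in cyiPSC. Outside cyiPSC the 90th percentile was much closer between samples, with 1748 CPM in post-transplant cyiPS-Cart, 1336 CPM in the large pre-transplant set, 1500 CPM in cyFT and 1227 CPM in cyAC. These values are not thinned, and cells of cyAC and cyFT, with median depths of 29699 and 27500 reads against 59249 in the large pre-transplant set and 80336 in post-transplant cyiPS-Cart, had fewer reads to be seen in. The part of depth in the medians was not tested. The tenth of the cells with the most *SOX9* reads held 44.2% of these reads in post-transplant cyiPS-Cart and 51.5% in cyFT. For *SOX5* the median cell was at 46.7 CPM in cyAC, at 9.55 CPM in the large pre-transplant set and at 0 in the other samples, and the 90th percentile was 477 CPM in cyAC, 568 CPM in cyFT and 261 CPM in post-transplant cyiPS-Cart.

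**Figure D2:**
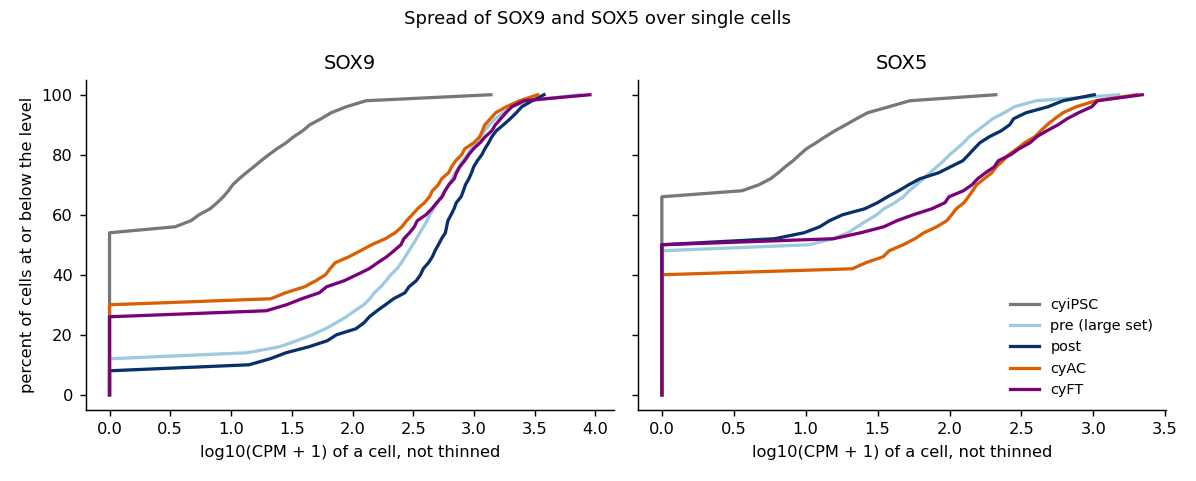
Percent of cells (y axis) at or below each *SOX9* or *SOX5* level, as log10(CPM + 1) of a cell without thinning (x axis), 1 line per sample and with the large pre-transplant set. Lines leave the left edge at the share of cells without a read and converge for *SOX9* at the upper end, where the 90th percentiles lie between 1227 and 1748 CPM outside cyiPSC.

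The relation of the trio to *COL2A1*, which encodes type II collagen, was then described over cells. Each Spearman correlation was taken over the thinned cells of 1 sample, which share a library and, after thinning, a number of reads, and the counts are sparse. For *SOX9* it was 0.23 over 308 cyAC cells and 0.19 over 288 cyFT cells. It was -0.01 over 320 post-transplant cells, -0.10 over 319 cells of the small and -0.08 over 3174 cells of the large pre-transplant set, and 0.03 over 2440 cyiPSCs. Values of about 0.2 were seen in cyAC and cyFT and not in the organoids. In cyAC 2414 genes had reads in at least 25% of thinned cells, and 99.8% of them had a lower correlation with *SOX9* than *COL2A1* had. Among cells with *COL2A1* reads only, the values were 0.12 in cyAC and 0.08 in cyFT. With *ACAN*, which encodes the core protein of aggrecan, the *SOX9* correlation was 0.15 in cyAC and 0.29 in cyFT, and -0.02 and -0.11 in the small pre-transplant set and post-transplant cyiPS-Cart. The correlations of *SOX5* and *SOX6* with *COL2A1* lay between -0.09 and 0.03 in all samples. The lowest was that of *SOX6* in the large pre-transplant set, below that with any other of the 5075 genes compared there, but values this weak in sparse counts are no finding.

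Cells were also grouped by their *COL2A1* level. Since the authors set low counts of abundant genes to 0, a cell without *COL2A1* or *COL1A1* reads here is one below a cutoff. The lowest *COL2A1* count left was 145 reads in the large pre-transplant set, 147 in the small one, 354 in post-transplant cyiPS-Cart, 219 in cyAC and 211 in cyFT, and the lowest *COL1A1* count in the last 4 was 277, 497, 76 and 81 reads. In cyAC *SOX9* was at 97.1 CPM (81.5 to 115) in the 41 cells without *COL2A1* reads and at 417, 343 and 537 CPM in the low, middle and high bins, which are 3 equal groups of the cells with reads. In cyFT it was at 457 CPM (440 to 476) in the 203 cells without *COL2A1* reads and at 654, 674 and 619 CPM in the bins. In both tissues cells without reads had the lowest level, and within the bins *SOX9* did not climb with *COL2A1* in cyFT. The 203 cyFT cells pooled 170 with *COL1A1* alone, at 556 CPM, with 33 that had neither collagen, at 78.8 CPM, of which 15 were immune-marker cells, and cells with *COL2A1* alone were at 554 CPM. In the large pre-transplant set the 265 cells without *COL2A1* reads had the most *SOX9*, at 686 CPM (673 to 699), against 557, 450 and 539 CPM in the bins. Post-transplant bins were at 723, 844 and 658 CPM, and 8 post-transplant cells without *COL2A1* reads were too few to be read. Under grouping by *ACAN*, *SOX9* was at 414, 676 and 604 CPM in the cyFT bins. In the large pre-transplant set it was at 550, 472 and 562 CPM. In both the high bin then lay above the low one, the reverse of the *COL2A1* bins. The direction was kept in cyAC (345, 363 and 484 CPM) and in post-transplant cyiPS-Cart (987, 721 and 652 CPM).

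*SOX5* went from 87.2 CPM (72.4 to 104) in cyAC cells without *COL2A1* reads to 215 CPM (200 to 231) in the low bin, and then to 170 CPM in the middle and 123 CPM (112 to 135) in the high bin. In cyFT it was at 167 CPM without *COL2A1* reads and at 115, 198 and 63.6 CPM in the bins. The summed level of post-transplant cells went the other way, from 69.4 and 68.8 CPM in the low and middle bins to 99.9 CPM (93.7 to 106) in the high bin. Their thinned shares of cells with a *SOX5* read were 32.7%, 28.8% and 31.7%, so the share of cells did not rise with it. In the cyAC bins the shares were 53.8%, 59.1% and 46.1%. When cells were grouped by *ACAN* in place of *COL2A1*, the log2 ratio of *SOX5* between the high and low bins changed sign in cyAC from -0.80 to 0.34 and in cyFT from -0.85 to 0.29. *SOX6* was lower in bins of higher *COL2A1* in the large pre-transplant set, from 11.2 CPM (9.69 to 13.0) without reads to 9.81, 8.51 and 4.82 CPM (4.32 to 5.36) in the bins. In the small set it was at 13.3, 4.85, 3.58 and 5.20 CPM, without that order.

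**Figure D3:**
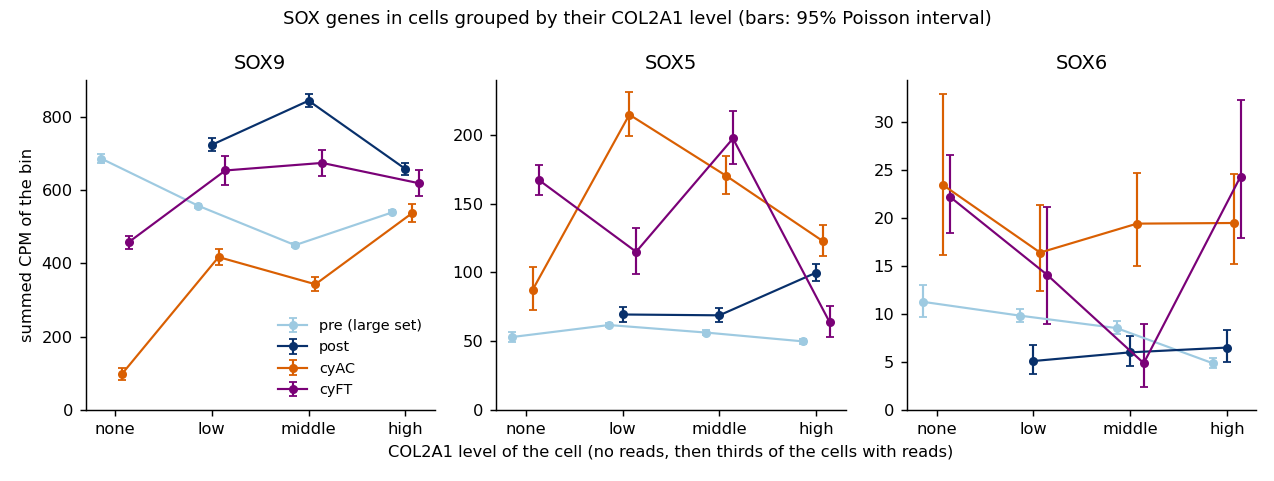
Summed CPM (y axis) of *SOX9*, *SOX5* and *SOX6* in cells without *COL2A1* reads and in the low, middle and high bins, 3 equal groups by *COL2A1* CPM of the cells with reads (x axis), with 95% Poisson intervals, for the large pre-transplant set, post-transplant cyiPS-Cart, cyAC and cyFT. Groups under 10 cells are left out. *SOX9* in cyAC rises from 97.1 CPM to 417 CPM at the first step, and the large pre-transplant set starts highest at 686 CPM.

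Cells of the 320-cell samples were also parted by whether they held reads of *COL2A1*, of the fibrous collagen gene *COL1A1*, of both or of neither, counting only reads left after that cutoff. *SOX9* was also found in cells below the *COL2A1* cutoff. In cyFT the 170 cells with *COL1A1* alone had 556 CPM and the 84 cells with *COL2A1* alone 554 CPM, while the 33 cells with both had 1020 CPM and the 33 with neither 78.8 CPM. The thinned shares there were 68.8% (60.5 to 76.2), 78.6% (68.3 to 86.8), 83.9% (66.3 to 94.5) and 13.8% (3.89 to 31.7). Only the cells with neither collagen stood apart in these shares, and 15 of those 33 were immune-marker cells, whose part in the low share was not tested. In cyAC the 276 cells with *COL2A1* alone had 435 CPM of *SOX9*, against 82.2 CPM in 16 cells with *COL1A1* alone and 107 CPM in 25 cells with neither. The cyAC shares were 66.7% (60.7 to 72.3), 37.5% (15.2 to 64.6) and 21.1% (6.05 to 45.6), of which the first and the last do not overlap, and 1 of the 25 cells with neither was an immune-marker cell.

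In the organoids cells with both collagens differed in *SOX9* in opposite directions. Before transplantation the 58 cells with both had 601 CPM (579 to 622) and the 242 with *COL2A1* alone 435 CPM (425 to 446), with thinned shares of 87.9% (76.7 to 95.01) and 76.0% (70.1 to 81.3). After transplantation the 47 cells with both had 359 CPM and the 265 with *COL2A1* alone 814 CPM (802 to 825), with shares of 61.7% (46.4 to 75.5) and 86.0% (81.3 to 89.97). The intervals of the post-transplant shares did not overlap, and those of the small pre-transplant set did. In the large pre-transplant set, with more cells and reads, the shares were 91.3% (88.9 to 93.4) with both and 82.7% (81.1 to 84.2) with *COL2A1* alone, which do not overlap. The Spearman correlation of *SOX9* with *COL1A1* was 0.15 before and -0.19 after transplantation. Whether the change belongs to these cells or to the separate libraries cannot be told apart. *SOX5* shares had overlapping intervals between cells with both collagens and cells with *COL2A1* alone, at 29.3% and 25.6% before and 34.0% and 30.6% after transplantation, and 32.3% and 50.0% in cyFT.

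**Figure D4:**
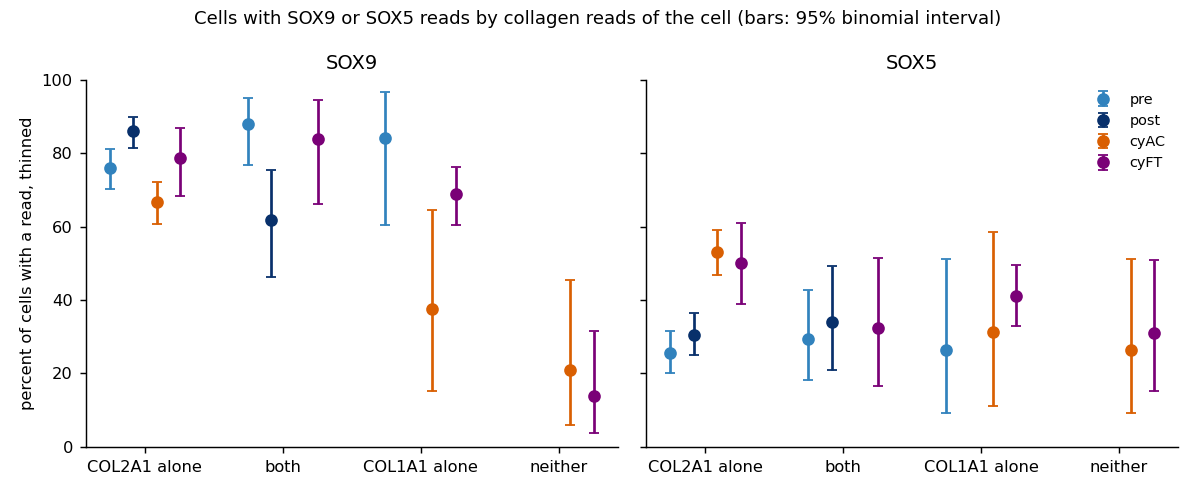
Percent of thinned cells with a *SOX9* or *SOX5* read (y axis, 95% binomial intervals) among cells with reads of *COL2A1* alone, both collagens, *COL1A1* alone or neither (x axis), in the small pre-transplant set, post-transplant cyiPS-Cart, cyAC and cyFT. Groups under 10 cells are left out. *SOX9* is lowest in cells with neither collagen (21.1% in cyAC, 13.8% in cyFT).

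Reads of all 3 genes in the same cell were rare after thinning. They were found in 3.69% (3.06 to 4.40) of cells of the large pre-transplant set and in none of 2440 cyiPSCs, a count that allows up to 0.123% by the limit of 3 counts and 0.151% by Clopper-Pearson. In the other set the shares were 0.627% before and 1.56% after transplantation, 2.60% in cyAC and 3.47% (1.68 to 6.29) in cyFT. The product of the single shares, which is what cells would show if the genes were scattered over them without relation, was 3.48% in the large pre-transplant set, 0.779%, 1.03%, 2.23% and 2.25% in the others, inside the interval of each observed share. Not thinned, the share with all 3 was 5.87% (5.12 to 6.70) in the large pre-transplant set, above the product of 4.97%, in cells whose depths differ. It was 6.88% in cyAC and 6.25% in cyFT, with the products of 4.66% and 4.34% inside the intervals. A *SOX5* read was found in 45.8% of 2698 large-set cells with a *SOX9* read and in 39.7% of 476 without, and in cyAC in 55.0% of 191 and 42.7% of 117. In post-transplant cyiPS-Cart the order was reversed, with 30.4% of 263 and 33.3% of 57. For this pair the product of the single shares lay inside the interval of the observed share in each sample. These intervals do not hold the single shares fixed. A product inside them, for the pair or for all 3 genes, therefore does not show the genes to be unrelated. At this depth the absence of a read does not show the absence of the transcript.

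The genes most like each trio member over the 5 samples were found by the smallest root mean square difference of centred log2(CPM + 1), among the 9304 other genes that reached 10 CPM in a sample. For *SOX5* they were *TNS2* (0.15), *LRP1* (0.24) and *COL27A1* (0.24), and *SOX6* came at place 11 with 0.30. For *SOX6* they were *HDAC9* (0.15), *INPP4A* (0.22) and *CD1D* (0.22), with *SOX5* at place 13. *SOX9* was most like *HTRA1* (0.16), which encodes a secreted protease, *TSPO* (0.17) and *PDGFRL* (0.23), and *SOX5* stood at place 176 and *SOX6* at place 389 for it. These places rest on 5 samples of which 2 pairs share a library, and on the added 1 CPM, which holds the *SOX6* difference between pre-transplant cyiPS-Cart and cyiPSC at 3.00, beside 3.04 for *SOX5*. With 0.1 CPM added it was 5.16, beside 3.22 for *SOX5* and 5.24 for *SOX9* in that comparison, and the places were not computed on that scale.

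Over the cells of a sample, the genes that followed *SOX9* most closely differed between samples. In the large pre-transplant set they were *FOS*, an immediate early transcription factor, at a Spearman correlation of 0.20, *ZC3H12C* at 0.19 and *WWP2*, a ubiquitin ligase gene that *SOX9* is known to activate in cartilage, at 0.17. In post-transplant cyiPS-Cart they were *RGCC* at 0.35, *KLF4*, a transcription factor, at 0.34 and *RGS2* at 0.31. In cyAC they were *COL3A1* and *HTRA1* at 0.28 and *PRELP*, a small matrix proteoglycan gene, at 0.25, and in cyFT *ACAN* and *SPARC* at 0.29 and *FMOD* at 0.28. In the small pre-transplant set they were *PRDX3*, *ARHGEF1* and *NAA10*, at 0.20 to 0.22, none of them among the 3 of the large set from the same library. For *SOX5* the highest value in any sample was 0.24, with *UAP1* in cyFT and *EIF4G2* in cyAC, and for *SOX6* 0.23 with *SRP9* in cyFT, and such weak values in sparse counts are given for completeness.

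Of 9 other SOX genes listed, only *SOX2*, at 279 CPM in cyiPSC, and *SOX8* reached 10 CPM in a sample. *SOX8*, a gene of the same SOX group as *SOX9*, was at 0.489 CPM in cyiPSC, 3.03 and 2.77 CPM in the large and small pre-transplant sets, 4.86 CPM in post-transplant cyiPS-Cart, 18.5 CPM in cyAC and 15.3 CPM in cyFT. It shared with *SOX5* and *SOX6* the higher level in the joint tissues, with 3.81-fold (3.08 to 4.74) more in cyAC than in post-transplant cyiPS-Cart.

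The targets of the trio were read from lists of cartilage genes. A list gene under 10 CPM in one sample of a pair passed the filter only through the other, where it is high, and its call is favoured by the filter. Of 16 matrix targets past the filter, 15 were at least 2-fold higher in pre-transplant cyiPS-Cart than in cyiPSC, with a median log2 difference of 7.81 against -0.61 over all genes, of which 16.5% were higher. Of these 15, 11 were under 10 CPM in cyiPSC. *COL2A1* went from 17.8 to 28572 CPM, *FMOD*, encoding fibromodulin, from 5.94 to 5994 CPM, *COL9A1* from 18.7 to 4785 CPM and *COL11A1* from 9.46 to 6974 CPM. The exception was *HAPLN3*, at 59.1 and 61.4 CPM. After transplantation 4 of 16 were at least 2-fold higher, namely *COL9A1*, *COL9A2*, *COL11A2* and *FMOD*, and 4 at least 2-fold lower, namely *MATN3*, *CNMD*, *EPYC* and *UCMA*, with a median of 0.31 against -0.25. Of all genes 8.86% were higher and 18.5% lower, so the count of lower targets was near that of genes at large. *UCMA*, which encodes a protein of the growth cartilage matrix, went from 5324 to 55.2 CPM while *SOX9* went from 483 to 785 CPM.

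Against cyAC 3 of 16 matrix targets were at least 2-fold higher in post-transplant cyiPS-Cart, namely *MATN4*, *EPYC* and *FMOD*, and *COL27A1* was at least 2-fold lower, with a median of 0.21 against -0.08 over all genes, of which 10.6% were higher and 15.7% lower. *COL27A1* was at 116 and 287 CPM, a ratio on the same side as that of *SOX5*. In pre-transplant cyiPS-Cart 3 were higher than in cyAC and 4 lower, with a median of -0.33 against 0.19, where 15.4% of all genes were higher and 11.8% lower. The higher were *UCMA*, *MATN4* and *EPYC* and the lower *COL9A2*, *COL11A2*, *COL27A1* and *SNORC*. *EPYC*, at 1.86 CPM in cyAC, passed the filter only through the organoid in both comparisons. In cyFT 5 of 14 were lower than in cyAC, namely *COL2A1*, *COL9A1*, *MATN3*, *UCMA* and *SNORC*, *HAPLN3* was higher, and the median was -0.79 against 0.19, where 11.3% of all genes were higher and 3.92% lower. *UCMA*, at 2.89 CPM in cyFT, passed only through cyAC.

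**Figure D5:**
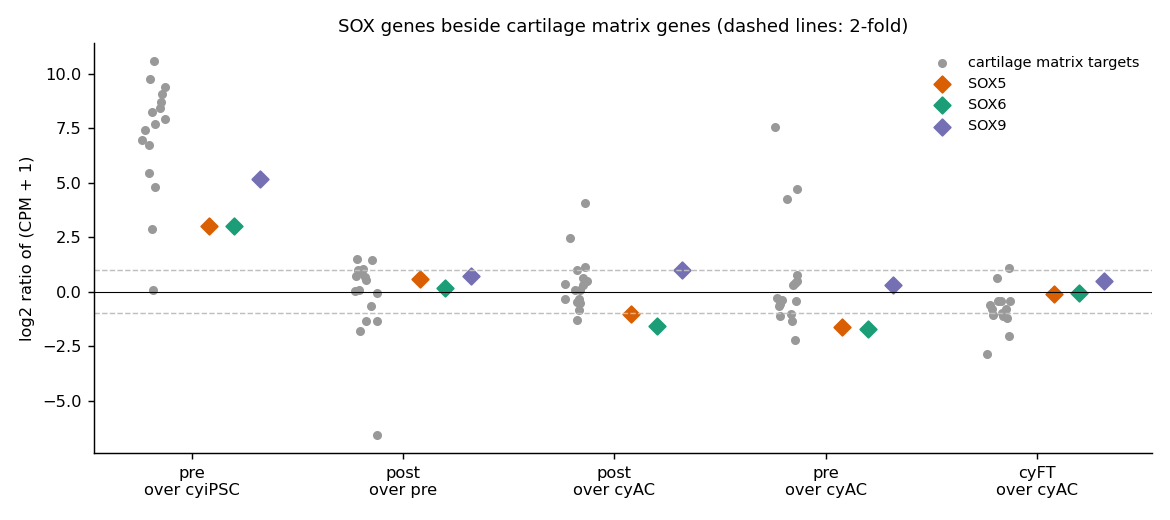
Log2 ratio of CPM + 1 (y axis) of *SOX5*, *SOX6* and *SOX9* (diamonds) and of each cartilage matrix target past the filter (grey points, spread sideways for sight) in the 5 comparisons (x axis, with the small pre-transplant set except against cyiPSC). Dashed lines mark 2-fold. The trio lies below most targets in the first comparison (5.15, 3.04 and 3.00 against a median of 7.81), and in cyFT over cyAC the targets have a median of -0.79 while *SOX9* is at 0.49.

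A list of other *SOX9* targets and cofactors holds 14 genes, *SOX5* and *SOX6* among them. Of 13 past the filter, 11 were at least 2-fold higher in pre-transplant cyiPS-Cart than in cyiPSC, with a median of 3.05 against -0.61, where 16.5% of all genes were higher. Of the 11, 6 were under 10 CPM in cyiPSC, *SCRG1* and *SOX5* among them. *SCRG1* went from 3.90 to 951 CPM, *WWP2* from 22.6 to 497 CPM, *S100A1* from 25.5 to 508 CPM and *CCN2*, a matricellular growth factor gene, from 49.6 to 287 CPM. After transplantation 5 of 13 were higher, namely *SCRG1*, *FGFR3*, *CA12*, *WWP2* and *S100A1*, and *CCN2* and *SLC26A2*, a sulfate transporter gene, were lower, with a median of 0.86 against -0.25 and all-gene shares of 8.86% higher and 18.5% lower. *WWP2* stood at 437 CPM before and 922 CPM after transplantation. Against cyAC 3 of 14 were higher and 5 lower in post-transplant cyiPS-Cart, with a median of -0.43, where 10.6% of all genes were higher and 15.7% lower. In pre-transplant cyiPS-Cart 0 were higher and 8 lower, with a median of -1.26, where 15.4% of all genes were higher and 11.8% lower. The 3 higher were *CA12*, *FGFR3* and *SCRG1*, and the 5 lower were *S100B*, *CCN2*, *SLC26A2* and, as given above, *SOX6* and *SOX5*. In cyFT *PTH1R* and *CA12* were higher and *S100B* lower than in cyAC, with a median of -0.24 against 0.19 and all-gene shares of 11.3% higher and 3.92% lower.

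Coactivators and partners of SOX proteins were the next list. Of 9 past the filter, *TRPS1* and *ARID5B*, which encodes a coactivator of *SOX9*, were at least 2-fold higher and *CTBP2*, *HDAC2* and *EP300* at least 2-fold lower in pre-transplant cyiPS-Cart than in cyiPSC, with a median of -0.72 against -0.61 over all genes. These counts of 2 and 3 of 9 stand beside 16.5% and 37.4% of all genes and are not read as a result about the list. *HDAC2* was at 699 CPM in cyiPSC and 147 CPM in the organoid, and *TRPS1* at 17.9 and 296 CPM. After transplantation *ARID5A* alone of 10 was past 2-fold, at 1.41 CPM before and 10.3 CPM after, and it entered the filter only through the post-transplant sample, where it is high. Of all genes 8.86% were higher and 18.5% lower in that comparison. Against cyAC *ARID5A* and *ARID5B* were lower among 11 in post-transplant cyiPS-Cart, *ARID5A*, *ARID5B* and *BARX1* were lower and *CTBP2* higher among 11 in pre-transplant cyiPS-Cart, and none of 11 was past 2-fold in cyFT, with medians of 0.01, 0.05 and 0.32. In the pre-transplant comparison *ARID5A* (1.41 CPM) and *BARX1* (3.66 CPM) passed the filter only through cyAC, where they are high. Of all genes 10.6%, 15.4% and 11.3% were higher and 15.7%, 11.8% and 3.92% lower in these 3 comparisons.

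Among regulators listed as opposing the trio or acting in hypertrophy, 5 of 7 were at least 2-fold higher in pre-transplant cyiPS-Cart than in cyiPSC, namely *MEF2C*, *NFATC1*, *ZBTB20*, *MEF2D* and *FOXA3*, with a median of 1.57 against -0.61, where 16.5% of all genes were higher. All of these but *FOXA3* were under 10 CPM in cyiPSC. After transplantation *DLX5* and *RUNX3* were higher and *NFATC1* was lower, at 101 and 15.7 CPM, among 9. *DLX5* was at 0.704 and 22.2 CPM and *RUNX3* at 2.44 and 17.6 CPM, and both entered the filter only through the post-transplant sample. With 8.86% of all genes higher and 18.5% lower, nothing is read from these counts about the list. Against cyAC *RUNX3* was higher and *NFATC1*, *ZBTB20* and *FOXA3* were lower among 9 in post-transplant cyiPS-Cart, where 10.6% of all genes were higher and 15.7% lower. In pre-transplant cyiPS-Cart *MEF2C*, *FOXA3*, *DLX5* and *ZBTB20* were lower among 8 and none was higher, where 15.4% of all genes were higher and 11.8% lower. *RUNX3*, at 2.03 CPM in cyAC, and *DLX5*, at 0.704 CPM in the pre-transplant organoid, each entered only through the other sample. In cyFT *MEF2C* and *HDAC4* were higher than in cyAC among 9 and none was lower, where 11.3% of all genes were higher and 3.92% lower, and *HDAC4*, at 2.62 CPM in cyAC and 10.1 CPM in cyFT, entered only through cyFT. The medians were 0.39, -0.61, -0.74 and -0.36 in these 4 comparisons. *CTNNB1*, the gene for β-catenin, was past 2-fold in none of the 5 comparisons.

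*SOX4* and *SOX11* were not analysed here, and their listed targets and partners say nothing of their own levels. Of 10 such genes past the filter, 8 were at least 2-fold lower in pre-transplant cyiPS-Cart than in cyiPSC, with a median of -2.31 against -0.61 over all genes, of which 37.4% were lower. *STMN1* went from 1124 to 59.5 CPM, *MARCKSL1* from 1068 to 38.6 CPM and *TEAD2* from 103 to 8.55 CPM, while *TUBB3* was higher, at 4.55 and 15.2 CPM, and *TCF12* stood at 91.0 and 93.8 CPM. *TEAD2*, *POU2F1*, *TEAD1* and *FZD3*, at 8.55, 5.41, 4.04 and 3.01 CPM in the organoid, entered the filter only through cyiPSC, where they are high. *TUBB3* entered only through the organoid. After transplantation 4 of 6 were lower, namely *TUBB3*, *TEAD4*, *MARCKSL1* and *STMN1*, where 18.5% of all genes were lower. *TUBB3* and *TEAD4* entered the filter there only through the pre-transplant sample. Against cyAC *STMN1* was higher and *TEAD4* lower among 5 in post-transplant cyiPS-Cart, where 10.6% of all genes were higher and 15.7% lower. *TUBB3* and *STMN1* were higher among 6 in pre-transplant cyiPS-Cart, where 15.4% were higher and 11.8% lower, and *STMN1* and *POU2F1* were higher among 6 in cyFT, where 11.3% were higher and 3.92% lower. Each of these genes entered only through the sample where it is high. The medians were -1.45, -0.04, 0.75 and 0.73. *STMN1* is also high in dividing cells, and 4 cycling markers summed to 1695 CPM in cyiPSC, 86.2 CPM in the large pre-transplant set, 78.4 CPM in the small one, 73.5 CPM in cyFT, 12.3 CPM in post-transplant cyiPS-Cart and 2.96 CPM in cyAC. Their part in the *STMN1* result was not tested.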

How the data were processed

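Single cells of the 5 conditions had been profiled by TAS-Seq in 3 transcriptome libraries. The deposited values are read counts per gene and cell, not molecule counts. The authors assigned reads with Bowtie2 2.4.2 to Ensembl cDNA and ncRNA of Macaca_fascicularis_6.0, kept cells above the inflection of the knee plot, assigned them to samples by hashtag, set low counts of abundant genes to 0 by a distribution-based background subtraction, and filtered on mitochondrial reads. Deposited counts of the second set were limited to 320 cells per sample. Tool versions are from the submitters' processing notes and the study's methods. The 3 hashtag libraries were not used.

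Reads were summed per sample and divided by the sample total (11087496 to 415457877 reads) to give CPM. A log2 ratio is of CPM + 1, and genes counted in a comparison had at least 10 CPM and reads in at least 5% of cells in either sample. Poisson, conditional and Clopper-Pearson 95% intervals cover counting error only, since amplified reads are not independent molecules. Cells were thinned once to the 10th percentile of the shallowest sample (30967 and 12191 reads), which left out 60 cyiPSCs, 353 and 1 pre-transplant cells of the large and small sets, 0 post-transplant, 12 cyAC and 32 cyFT cells. Scripts were tested on simulated data and ran in Python 3.11.15 with numpy 2.4.6, pandas 2.3.3, scipy 1.17.1 and scanpy 1.11.5, and TMM factors came from edgeR 4.0.16 in R 4.3.3. Doublets were scored per library with scrublet, which marked 0.232% of the 6027 cells of the first set and so was not taken to have worked there, and 8, 2 and 2 cells in post-transplant cyiPS-Cart, cyAC and cyFT. Marked cells were kept.

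The members and lists were chosen with earlier results of these data known. Lists covered other SOX genes, matrix and other targets of *SOX9*, coactivators and partners, opposing regulators, targets of *SOX4* and *SOX11*, and cell type markers. Named were the members, the 4 genes of each target or regulator list with the highest CPM, list genes past 2-fold where 5 or fewer were counted, the 3 genes most like each member over samples and over cells, and *COL2A1*, *ACAN* and *COL1A1*. Further genes named from longer counts were chosen after their values were seen. Alternatives changed the pseudocount, the total, the scaling, the cell filter, the thinning and the grouping gene.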

Additional observations from a re-analysis of the deposited data

How the results depend on the processing

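No paired analysis was possible because each condition was 1 sample and no result came from a test. No *SOX9* difference between samples changed sign under any alternative. The log2 difference of *SOX9* between pre-transplant cyiPS-Cart and cyiPSC (5.15) was 5.24 and 4.49 with pseudocounts of 0.1 and 10 CPM, 5.23 without 4 collagens in the total, 5.80 with TMM, 5.03 as a mean of per-cell CPM and 5.19 without marked doublets. The marking was not taken to have worked in this set, so the last value is no check on doublets. Post-transplant over pre-transplant (0.70) it was 0.65 without mitochondrial genes, 0.81 without the collagens, 0.92 with TMM, 0.45 as a per-cell mean, 0.76 under a stricter cell filter and 0.57 with the large pre-transplant set. Post-transplant over cyAC (0.99) it was 1.09, 1.11, 0.72 and 0.89 without the collagens, with TMM, as a per-cell mean and under the stricter filter. Pre-transplant over cyAC (0.29) it was 0.18 with TMM, 0.13 under the stricter filter and 0.42 with the large set. In cyFT over cyAC (0.49) it was 0.31 both with TMM and as a per-cell mean, and 0.60 without immune-marker cells, an alternative chosen after seeing the data. The number of members past 2-fold between post-transplant cyiPS-Cart and cyAC (2) was 0 with a pseudocount of 10, where *SOX5* was at -0.94 and *SOX6* at -0.89, and 1 without marked doublets, where *SOX5* was at -0.98 (-1.07 to -0.90 over the alternatives), and between pre-transplant cyiPS-Cart and cyAC (2) it was 1 with a pseudocount of 10. The correlation of *SOX9* with *COL2A1* in cyAC (0.23) was 0.12 among cells with *COL2A1* reads. That alternative was not run in cyiPSC, where 10 cells held such reads.

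*SOX6* in pre-transplant cyiPS-Cart over cyiPSC (3.00) ranged from 0.83 with a pseudocount of 10 to 5.16 with one of 0.1. Of 129 alternative values of the member ratios 125 kept their sign. The 4 that did not were *SOX6* after against before transplantation, which ranged from -0.43 to 0.34, and *SOX5* and *SOX6* in cyFT over cyAC, from -0.29 to 0.05 and from -0.24 to 0.14. Of 147 alternative thinned shares 61 left the interval of the main value, most of them with another depth or a higher minimum of reads. Of 45 ratios between the high and low *COL2A1* bins, 34 kept their sign. Few *SOX6* reads, 1 sample per condition and the separate libraries limit all comparisons.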
